A study of Mus musculus with 12 samples.

Results

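NRas G12D alone was compared with WT in c-Kit+ bone marrow cells, the fraction that holds hematopoietic stem/progenitor cells (HSPCs), by droplet single-cell RNA sequencing. The UMIs of all cells of a library were summed (UMIs are unique molecular identifiers, tags that let each captured transcript be counted once), and the 3 G12D libraries were set against the 3 WT libraries of the same time points. These are 6 of the 12 libraries of the series, and they held 15298 of its 32701 cells, 7583 from WT and 7715 from G12D. G12D mice carried Mx1-Cre and an inducible knock-in allele (Mx1-Cre+;NRas G12D+/-), whereas WT mice had no Mx1-Cre. The recombinase therefore differed together with the allele, and the effects of both cannot be told apart. All mice, WT included, received 5 injections of pIpC, a synthetic double-stranded RNA that raises interferon and so switches on Mx1-Cre. The labels give them as age-matched at 8 to 12 weeks when injected, the study's text gives a younger age at injection, and the age when marrow was taken is not stated. Marrow was taken 2 weeks (T1), 2 months (T2) or 4 months (T3) after pIpC. The remaining 6 libraries came from mice with Ezh2 deleted alone (E2-KO, Mx1-Cre+;Ezh2 f/f) or together with the NRas allele (G12D/E2-KO). Mx1-Cre is active in many interferon-responsive cells and not in blood cells alone. Each genotype and time point is 1 library, and the sources used here do not say how many animals it holds. The time points stand as replicates, and the main fit holds time point as a term over all 12 libraries. A p-value of that fit thus measures the spread left after a shared effect of each time point. In that spread, animals and time effects particular to a genotype cannot be told apart.

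NRAS is a small GTPase that passes signals from cytokine and growth factor receptors to the RAF, MEK and ERK kinases and to PI3K and AKT. The G12D change replaces a glycine of the nucleotide pocket with aspartate, which slows GTP hydrolysis and keeps the protein in its active form. In bone marrow such alleles are known from myeloproliferative disease, in which granulocyte and monocyte output is raised. Counts of transcript 3′ ends do not read the codon that the allele changes.

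The 6 libraries held 2350 to 2844 cells and 16.8 to 23.6 M UMIs, where M stands for 10 to the power of 6. In the table of G12D T1, 2896 of 5648 cells matched a cell of the G12D/E2-KO T1 table (cosine above 0.9). They were left out of G12D T1, and their Ezh2 level was 20.9 CPM (UMIs of a gene per M UMIs of the library) against 86.3 CPM in the 2752 cells that were kept. Nras itself had 77.5, 64.9 and 66.8 CPM in WT and 80.3, 67.9 and 65.7 CPM in G12D at T1, T2 and T3, so the groups overlapped (log2 change 0.07, SE 0.12, edgeR adjusted p 0.857). Ezh2 had 132.9, 103.4 and 103.0 CPM in WT and 86.3, 102.8 and 81.7 CPM in G12D. Its means were 113 ± 17.1 CPM in WT and 90.3 ± 11.1 CPM in G12D (SD, n = 3; edgeR adjusted p 0.493). All G12D values lay below all WT values, though G12D T2 only just, as was so for 9.5% of all genes. The female-specific transcript Xist was at 1296 CPM in WT T3 and 1357 CPM in G12D T3 and under 1 CPM in the other libraries of both genotypes, so the sexes matched at each time point.

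Of 12848 genes tested, 14 (0.109%) differed between G12D and WT at an adjusted p under 0.05 in edgeR's quasi-likelihood test, 11 of them higher in G12D (0.0856%) and 3 lower (0.0233%). An unadjusted p under 0.05 was found for 1522 genes (11.8%). The 3 G12D libraries lay wholly above the 3 WT libraries in 935 genes (7.28%) and wholly below them in 1220 genes (9.5%). The median change over all genes was -0.01 on the log2 scale. DESeq2 called 142 genes, 79 higher and 63 lower, and leaving out G12D T2 gave 136 calls, 64 higher and 72 lower (47.06% higher against 78.57% with all libraries). The 14 genes were among the calls of both. Cap1, Adgrg5, Pttg1 and Gm12802 passed in every one of the 12 fits that leave out 1 library, and each of the other 10 lost the call in 2 or more of these fits, with the adjusted p reaching 0.424 at most. In the edgeR fit of the 6 libraries alone, with time point as a block, 9 of the 14 passed, and Lyplal1, Txndc12, Dsp, Zscan26 and Tceanc2 did not (adjusted p 0.0634 to 0.127).

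The time points were not alike. Among 6967 genes with a mean of at least 10 CPM, 203 (2.91%) differed at least 2-fold between G12D and WT at T1, 31 (0.445%) at T2 and 298 (4.28%) at T3. The SD of the log2 change over these genes was 0.45 at T1, 0.23 at T2 and 0.46 at T3. In these sums over all cells, G12D was thus closest to WT at T2. The part of cell make-up in this was not tested. Each time point has 1 library a genotype, so this order has no replicate check.

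**Figure D1:**
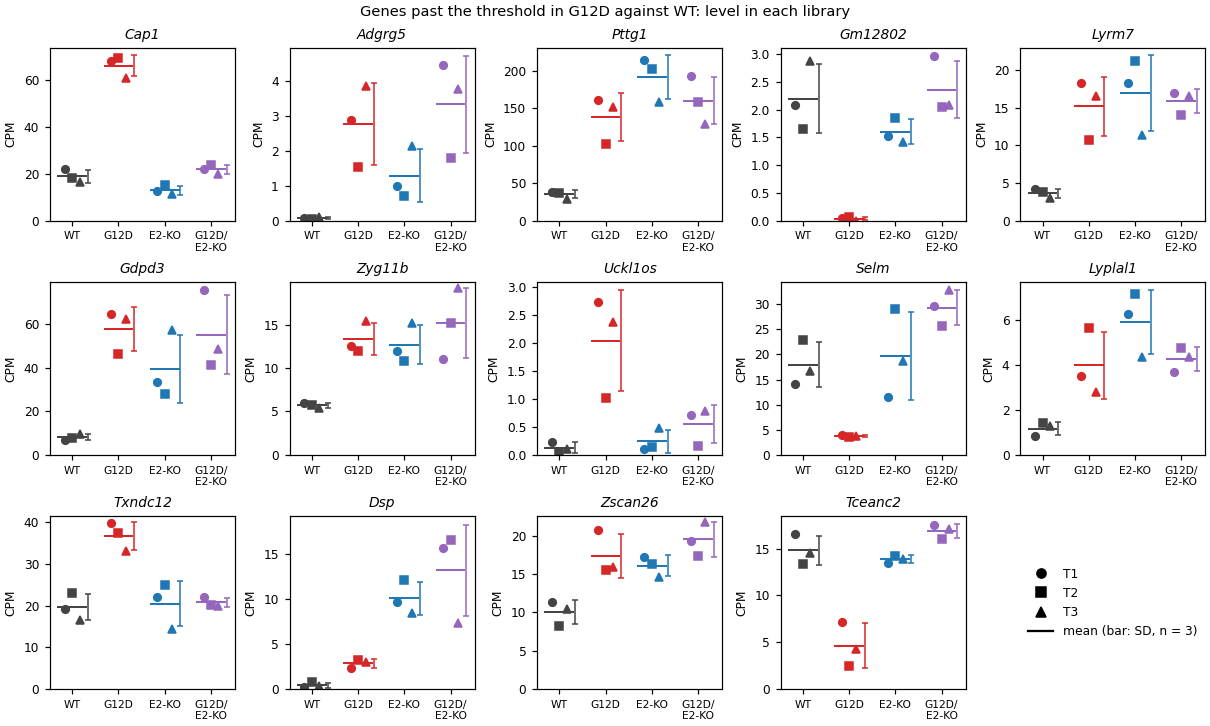
Level (CPM, from 0) of the 14 genes past the threshold in each of the 12 libraries, with T1, T2 and T3 as circles, squares and triangles, the mean of a genotype as a line and its SD (n = 3) as a bar. Cap1 stands at 61.0 to 69.5 CPM in the G12D libraries and at 11.2 to 23.5 CPM in all others, whereas Pttg1 is at 29.1 to 38.7 CPM in WT and at 102 CPM or more in every mutant library.

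The gene with the smallest p was Cap1 (ENSMUSG00000028656; mm10 chromosome 4, 122859047 to 122886056, minus strand), which encodes a cyclase-associated protein that recycles actin monomers. It had 21.8, 18.3 and 16.4 CPM in WT and 67.9, 69.5 and 61.0 CPM in G12D. The groups were far apart, with little spread within either, and the level rose 3.61-fold (log2 change 1.85, SE 0.13, edgeR adjusted p 0.00012). The E2-KO level was 12.9 ± 2.00 CPM, and that of G12D/E2-KO 21.9 ± 1.84 CPM (SD, n = 3). All E2-KO libraries lay below all WT libraries (11.2 to 15.1 CPM), and all G12D/E2-KO libraries, which carry the same NRas allele, lay far below those of G12D alone. Of 23 tested genes in the list of actin and cyclase-associated genes, Cap1 was the only one called by edgeR (0.109% over all genes). The list median was 0.21 with 22 of 23 members above 0 in the fit (0.10 without WT T1, 0.14 without G12D T3). By time point it was 0.42 at T1, -0.01 at T2 and 0.20 at T3. In 5 of the 23, Cap1 among them, all G12D libraries lay above all WT libraries, against 7.28% over all genes. The list was drawn up with the Cap1 call known, so nothing is read from that difference. The most abundant members were Tmsb4x and Actb, which encode an actin-sequestering peptide and an actin, with log2 changes of 0.21 and 0.46 (adjusted p 0.629 and 0.459).

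Pttg1 (chromosome 11, 43420250 to 43426251, minus strand) encodes securin, which inhibits separase, the protease that frees sister chromatids, until anaphase. It had 38.7, 37.5 and 29.1 CPM in WT and 162, 102 and 152 CPM in G12D, and rose 4.07-fold (log2 change 2.02, SE 0.20, edgeR adjusted p 0.0021). G12D T2 was the lowest of the mutant libraries and still lay above every WT library. In E2-KO, compared with the same WT libraries, it was at 192 ± 29.6 CPM, and in G12D/E2-KO at 160 ± 31.7 CPM. Of 22 mitosis genes tested, Pttg1 was the single call by edgeR, and the median change of the list was -0.14 (-0.06 without WT T3, -0.09 without G12D T1). Cenpf, a kinetochore protein gene, had 120, 96.1 and 99.7 CPM in WT and 79.6, 82.8 and 76.5 CPM in G12D (log2 change -0.36, adjusted p 0.393). Top2a, the topoisomerase of dividing cells, had a log2 change of -0.18 (adjusted p 0.658).

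A further pair of genes concerns mitochondria and lipids. Lyrm7 (chromosome 11, 54826866 to 54860916, minus strand), an assembly factor of respiratory complex III, had 4.16, 3.81 and 2.97 CPM in WT and 18.3, 10.8 and 16.5 CPM in G12D. It rose 4.28-fold (log2 change 2.10, SE 0.24, edgeR adjusted p 0.0047). Gdpd3 (chromosome 7, 126766334 to 126775649, plus strand), a lysophospholipase D, had 6.83, 7.82 and 9.68 CPM in WT and 64.7, 46.3 and 62.5 CPM in G12D. It rose 7.16-fold (log2 change 2.84, SE 0.32, adjusted p 0.0105), and no library of one genotype came near the other. In E2-KO, against the same WT libraries, Lyrm7 was at 16.9 ± 5.04 CPM and Gdpd3 at 39.5 ± 15.5 CPM. In G12D/E2-KO the levels were 15.8 ± 1.61 and 55.3 ± 18.2 CPM. Lyplal1 (chromosome 1, 186087731 to 186117310, minus strand), a lysophospholipase-like serine hydrolase gene, was low, with 0.832, 1.40 and 1.28 CPM in WT and 3.50, 5.63 and 2.79 CPM in G12D (log2 change 1.75, SE 0.25, adjusted p 0.0248). Its E2-KO mean was 5.92 ± 1.42 CPM.

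Selm (annotated as Selenom; chromosome 11, 3514684 to 3517351, plus strand), a selenoprotein of the endoplasmic reticulum, had 14.2, 22.9 and 16.8 CPM in WT and 4.01, 3.64 and 3.74 CPM in G12D. It fell by 2.17 on the log2 scale (SE 0.29, edgeR adjusted p 0.0231), and the G12D values were almost equal at the 3 time points. The E2-KO mean was 19.8 ± 8.76 CPM, and the G12D/E2-KO mean 29.3 ± 3.58 CPM with each library above all WT libraries. Of 15 selenoprotein genes tested, edgeR called Selm alone, while DESeq2 and the edgeR fit without G12D T2 also called Gpx3, and the list median was -0.01. Gpx1, the most abundant member and a glutathione peroxidase gene, had a log2 change of 0.26 (adjusted p 0.570). Txndc12 (chromosome 4, 108834601 to 108862127, plus strand), a thioredoxin-like protein of the endoplasmic reticulum, had 19.3, 23.0 and 16.6 CPM in WT and 39.8, 37.3 and 33.1 CPM in G12D, and rose 1.92-fold (log2 change 0.94, SE 0.14, adjusted p 0.0375). Its E2-KO and G12D/E2-KO means were 20.5 ± 5.43 and 20.8 ± 1.19 CPM, both within the range of WT. The gene spans Kti12 on the same strand (log2 change -0.43, adjusted p 0.403), and reads of the shared stretch cannot be told apart. Zyg11b (chromosome 4, 108229724 to 108301096, minus strand), a substrate receptor of a cullin ubiquitin ligase, had 6.0, 5.75 and 5.38 CPM in WT and 12.6, 12.0 and 15.4 CPM in G12D (log2 change 1.25, SE 0.16, adjusted p 0.0138). Its E2-KO mean was 12.7 ± 2.25 CPM.

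The remaining protein-coding calls were surface, junction and nuclear genes. Adgrg5 (chromosome 8, 94923694 to 94943280, plus strand), an adhesion G protein-coupled receptor gene, had 1, 1 and 2 UMIs in the WT libraries and 57, 27 and 65 UMIs in the G12D libraries. The ratio of pooled CPM was 41.3 (exact 95% interval 15.8 to 153.5, counting error only; edgeR adjusted p 0.00131), and its E2-KO mean was 1.28 ± 0.760 CPM beside 2.76 ± 1.17 CPM in G12D. Dsp (chromosome 13, 38151294 to 38198577, plus strand), which encodes desmoplakin of cell junctions, had 0.238, 0.761 and 0.359 CPM in WT and 2.33, 3.24 and 2.97 CPM in G12D (log2 change 2.66, SE 0.40, adjusted p 0.0443). With Ezh2 deleted it was higher again, with means of 10.1 ± 1.83 CPM (E2-KO) and 13.1 ± 5.07 CPM (G12D/E2-KO). Zscan26 (chromosome 13, 21442180 to 21453730, minus strand), a zinc finger protein gene, had 11.3, 8.29 and 10.4 CPM in WT and 20.7, 15.6 and 15.9 CPM in G12D. It rose 1.78-fold (log2 change 0.84, SE 0.13, adjusted p 0.0452), with the E2-KO mean at 16.1 ± 1.38 CPM. Dsp and Zscan26 were the least stable of the calls: they passed in 3 and 2 of the 12 fits that leave out 1 library, with adjusted p of up to 0.244 and 0.424.

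A pair of the called genes are RNAs annotated as antisense, both near 0 in one genotype. Uckl1os (chromosome 2, 181578480 to 181585170, plus strand) had 0.238, 0.0423 and 0.102 CPM in WT and 2.74, 1.02 and 2.37 CPM in G12D (log2 change 4.05, SE 0.53, edgeR adjusted p 0.0138). Gm12802 (chromosome 4, 107126613 to 107136252, plus strand) had 35, 39 and 56 UMIs in WT and 1, 1 and 0 UMIs in G12D, a ratio of pooled CPM of 58.7 (exact 95% interval 15.9 to 489, counting error only; adjusted p 0.0028). With Ezh2 deleted alone it was present at 1.60 ± 0.224 CPM, and with both alleles at 2.36 ± 0.521 CPM, near the 2.20 ± 0.618 CPM of WT. Gm12802 overlaps the 3′ end of Tceanc2 on the other strand. Whether strand was used in counting is not given in the sources used here, so reads of the overlap cannot be assigned with certainty.

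Tceanc2 (chromosome 4, 107134155 to 107179116, minus strand), a gene with a domain of the elongation factor TFIIS, was the third call that fell. It had 16.5, 13.4 and 14.5 CPM in WT and 7.20, 2.45 and 4.27 CPM in G12D (log2 change -1.67, SE 0.26, edgeR adjusted p 0.0452), beside 13.9 ± 0.407 CPM (E2-KO) and 16.9 ± 0.781 CPM (G12D/E2-KO). It passed in 4 of the 12 fits that leave out 1 library. By the RefSeq starts the gene lies head to head with Tmem59, and the RefSeq start windows of both (250 bases before to 50 after the start) share 237 bases. The GENCODE gene given above reaches further, past this start, so that in that annotation both genes overlap. The window of Tceanc2 is printed because 1 stretch of DNA thus lies at the start of a gene that fell and of one that was not called. It is from RefSeq for GRCm38.p6, chr4:107178317-107178616, minus strand, with the letters CCAAT in capitals.
Tceanc2 promoter: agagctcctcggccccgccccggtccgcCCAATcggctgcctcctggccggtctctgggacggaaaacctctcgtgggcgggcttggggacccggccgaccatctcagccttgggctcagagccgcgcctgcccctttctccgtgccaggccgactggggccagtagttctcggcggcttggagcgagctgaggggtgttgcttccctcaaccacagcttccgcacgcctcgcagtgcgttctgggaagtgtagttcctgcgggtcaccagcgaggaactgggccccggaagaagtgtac
CCAAT, searched on both strands, occurs in 37.4% of 32851 such windows and in 5 of the 13 called genes that have one. Tmem59 had 116, 110 and 103 CPM in WT and 123, 117 and 111 CPM in G12D (log2 change 0.13, SE 0.11, adjusted p 0.676).

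Of the 14 calls, 5 lie on chromosome 4, which holds 796 of the 12738 tested genes with a position. Gm12802, Tceanc2, Zyg11b and Txndc12 fall within 1.74 Mb (107126613 to 108862127), where 27 genes were tested, and Cap1 lies further along the chromosome. This stretch was noticed after the values were seen and was given no test. Within it 8 of the 27 genes had an unadjusted p under 0.05, in both directions. Of these, 4 are the called genes by which the stretch was chosen, so this count cannot be weighed against the 11.8% over all genes. Zfyve9, an endosomal adaptor gene, had at most 0.0594 CPM in WT and 0.238 to 0.398 CPM in G12D (log2 change 2.55, SE 0.57, adjusted p 0.180). Coa7, a cytochrome oxidase assembly gene, had 6.40 to 7.32 CPM in WT and 9.23 to 13.1 CPM in G12D (log2 change 0.70, SE 0.21, adjusted p 0.291). Their neighbours Tmem59, Ndc1 and Btf3l4 were near WT, with log2 changes of 0.13, 0.16 and -0.06.

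**Figure D2:**
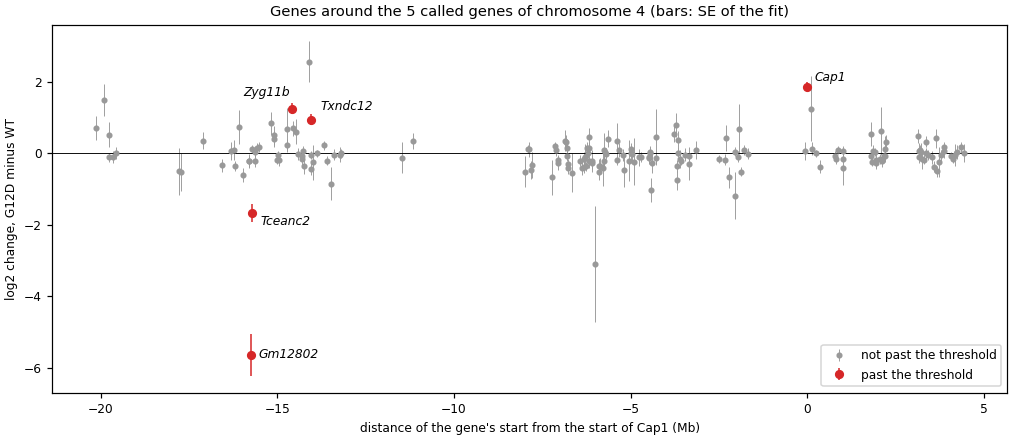
Log2 change (G12D minus WT) with the SE of the fit for tested genes of chromosome 4, by the distance of their start from the start of Cap1 (Mb), with genes past the threshold in red. Gm12802 (-5.63) and Tceanc2 (-1.67) lie below 0 and Zyg11b (1.25), Txndc12 (0.94) and Cap1 (1.85) above it, among neighbours that mostly lie near 0.

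The neighbours of Nras were described in the same way, since a knock-in can carry flanking DNA of another strain. Of the 20 tested genes on each side of it (chromosome 3, 98013527 to 105720842), 0 of 40 were called by edgeR, 5 had an unadjusted p under 0.05, near the 11.8% found over all genes, and the median log2 change was 0.03. Ptpn22, a phosphatase gene of lymphocytes, had 12.2, 12.7 and 10.7 CPM in WT and 17.4, 13.5 and 15.8 CPM in G12D (log2 change 0.42, SE 0.15, adjusted p 0.334). Tspan2, a tetraspanin gene, had 10.9 to 13.9 CPM in WT and 14.4 to 18.2 CPM in G12D (log2 change 0.47, SE 0.16, adjusted p 0.336). Igsf3, an immunoglobulin superfamily gene, overlapped between groups, with 11.1, 8.16 and 13.2 CPM in WT and 5.63, 10.02 and 4.04 CPM in G12D (log2 change -0.75, SE 0.30, adjusted p 0.387).

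The 10 genes next in order whose libraries did not overlap had adjusted p of 0.0526 to 0.0943 and are given as values. In 6 of the 10 (Il1rl2, Fabp4, Gm9726, Wdfy1, Cask and Nkapl) all E2-KO libraries, which lack the NRas allele, also lay past all WT libraries on the same side. The same held for 8 of the 14 called genes. These counts were not set against a share over all genes. Il1rl2, a receptor gene for interleukin 36, had 1.84, 2.33 and 2.05 CPM in WT and 5.02, 5.35 and 9.62 CPM in G12D (log2 change 1.65). Wdfy1, an endosomal adaptor gene, had 9.09, 8.80 and 9.27 CPM in WT and 29.5, 17.9 and 32.1 CPM in G12D (log2 change 1.58). Cask, a scaffold kinase gene, had 4.34 to 6.04 CPM in WT and 7.57 to 12.0 CPM in G12D. Among those lower in G12D, the fatty acid-binding protein gene Fabp4 had 7.31, 2.92 and 3.33 CPM in WT and 1.12, 1.31 and 0.831 CPM in G12D (log2 change -1.91). Ptrf (Cavin1), a caveola coat gene, had 3.76 to 4.35 CPM in WT and 1.01 to 1.84 CPM in G12D (log2 change -1.45). Sbk1, a kinase gene, had 2.61 to 3.51 CPM in WT and 0.507 to 1.08 CPM in G12D (log2 change -1.84). The others were Ifitm7 (1.15), Nkapl (2.13), the pseudogene Gm9726 (3.41) and Tgfb1i1__1 (-3.10), a second feature with the symbol Tgfb1i1, the last at 1 UMI in each G12D library against 10 to 12 in WT. At the other end of the range, the 10 most abundant tested genes (S100a8, S100a9, Camp and Ngp of neutrophils, the globin gene Hbb-bs, Tmsb4x, the mitochondrial genes mt-Atp6 and mt-Co3, and the ribosomal protein genes Rps19 and Rpl32) had log2 changes between -0.88 for Hbb-bs and 0.22 for Ngp, and none was called (edgeR adjusted p 0.510 or more).

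The lineage make-up of the libraries was compared next, because RAS activation is known to favour myeloid output. Cells were grouped by marker genes into 13 classes, written here as X-like, from clusters of WT cells and the nearest WT neighbour of each mutant cell. By the edgeR test on cell numbers, 0 of 13 classes passed an adjusted p under 0.05, and 2 had an unadjusted p under 0.05, ProMo-like (promonocyte) and EryP/early Ery-like (early erythroid) cells. ProMo-like cells made up 5.45, 5.80 and 5.69% of WT cells and 12.3, 7.21 and 13.2% of G12D cells. All G12D values were above all WT values (log2 change 0.94, SE 0.31, edgeR p 0.012, adjusted p 0.156). EryP/early Ery-like cells made up 18.3, 14.3 and 20.0% in WT and 7.63, 15.7 and 6.19% in G12D, lower at T1 and T3 and not at T2 (log2 change -0.93, SE 0.37, adjusted p 0.180). Without G12D T2 the edgeR test called 2 classes.

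GMP/early GN-like cells (granulocyte-macrophage progenitors and early granulocytes) made up 13.3, 16.4 and 13.02% in WT and 21.7, 19.6 and 22.1% in G12D. The groups did not overlap (log2 change 0.58, SE 0.31, adjusted p 0.344). Late GN-like cells, the largest class, made up 31.9 ± 4.35% in WT and 35.2 ± 2.06% in G12D (adjusted p 0.761), and HSC/MPP-like cells (stem cells and multipotent progenitors) 7.11 ± 1.09% and 7.50 ± 2.24% (adjusted p 0.824). Meg-like (megakaryocytic) cells were lower at each time point, with 2.21, 3.16 and 3.89% in WT and 1.34, 2.20 and 1.18% in G12D (log2 change -0.91, SE 0.55, adjusted p 0.344; -0.51 without G12D T3). B lymphoid-like cells spread widely within a genotype, from 0.67 to 9.87% in WT and from 1.05 to 4.15% in G12D. Myeloid cells outnumbered erythroid cells by a ratio of 1.85, 2.04 and 1.95 in WT and 4.57, 2.68 and 7.49 in G12D. It was higher in G12D in 3 of 3 pairs (mean log2 difference 1.21 ± 0.78, SD; exact two-sided sign-flip permutation p 0.25, the smallest that 3 pairs can give). Depth did not follow genotype: the median UMI number per cell was 5514 to 6975.5 in WT and 5458 to 6067.5 in G12D.

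**Figure D3:**
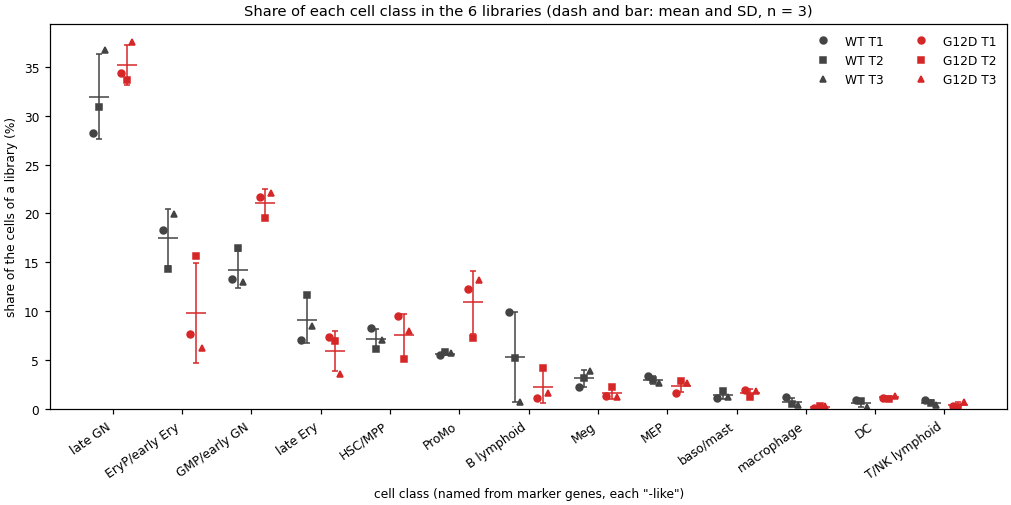
Share (%) of each cell class among the cells of the 6 libraries, WT in grey and G12D in red, with dash and bar for the mean and SD (n = 3). ProMo-like shares are 5.45 to 5.80% in WT and 7.21 to 13.2% in G12D, and in the EryP/early Ery-like class G12D T2 (15.7%) lies among the WT values while G12D T1 and T3 lie below them.

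Gene lists for lineages and pathways were then followed over all cells of a library. In such sums, fewer cells of a type and less RNA per cell cannot be told apart. The lists are given by counts and medians, to be read against the shares over all genes (6.17% with an unadjusted p under 0.05 and higher, 5.67% lower). Of 538 members tested, 4 were called by edgeR (0.743%, against 0.109% over all genes), and these are Cap1, Pttg1, Selm and Txndc12, described above. Nothing is read from that difference, since the lists were drawn up with these calls known. DESeq2 called 28 members, beside 142 of 12848 genes over all, and the fit without G12D T2 called 25, beside 136 of 13148. Nothing is read from these counts either.

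Monocyte lineage genes had a median log2 change of 0.95 over the 20 tested, all 20 above 0, and 14 had an unadjusted p under 0.05, all higher. The medians were 1.27 at T1, 0.02 at T2 and 1.47 at T3, and the fit without G12D T3 gave 0.53. Csf1r, the receptor for macrophage colony-stimulating factor, had 6.54, 6.51 and 5.22 CPM in WT and 16.1, 8.82 and 17.3 CPM in G12D (log2 change 1.23, SE 0.27, edgeR adjusted p 0.189). Ms4a6c had 49.6, 46.9 and 47.3 CPM in WT and 138, 62.8 and 156 CPM in G12D (log2 change 1.32, adjusted p 0.237). Ly6c2, a surface antigen of classical monocytes and the most abundant member, had 740, 981 and 785 CPM in WT and 1647, 1124 and 1771 CPM in G12D (log2 change 0.88, adjusted p 0.287). In each of these genes G12D T2 was the G12D library nearest to WT, and it still lay above the highest WT library. The share of ProMo-like cells moved in the same libraries, and its part in these values was not tested. Within ProMo-like cells the list had a median of 0.27 over 19 genes with 0 called by edgeR.

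Granulocyte-macrophage progenitor and primary granule genes had a median of 0.57 over 19 genes (0.34 without WT T1), all 19 above 0 in the fit, and 9 with an unadjusted p under 0.05. By time point the list medians were 1.13 at T1, -0.02 at T2 and 0.64 at T3, so the list as a whole was not raised at T2. Cebpa, the transcription factor that directs this lineage, had 16.5, 21.4 and 17.4 CPM in WT and 41.0, 25.2 and 37.8 CPM in G12D (log2 change 0.92, SE 0.22, edgeR adjusted p 0.212). Elane, which encodes neutrophil elastase, had 1550, 2753 and 1944 CPM in WT and 3728, 3462 and 2877 CPM in G12D (log2 change 0.71, adjusted p 0.409). Mpo, encoding myeloperoxidase, overlapped between groups, with 566, 1053 and 681 CPM in WT and 1194, 1021 and 1160 CPM in G12D. Within GMP/early GN-like cells the median was 0.11. Late granulocyte genes had a median of 0.17 over 24 genes (-0.06 without WT T1, 0.32 without WT T2, 0.36 without WT T3, 0.28 without G12D T1 and 0.10 without G12D T3), and 0 had an unadjusted p under 0.05. Their most abundant members S100a8 and S100a9 had log2 changes of -0.06 and -0.13.

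Early erythroid genes went the other way, with a median of -0.67 over 18 genes, 10 of which had an unadjusted p under 0.05, all lower. The medians were -0.77 at T1, -0.01 at T2 and -1.40 at T3, and the fit gave -0.41 without G12D T3 and -1.06 without G12D T2. Gata1, the central erythroid transcription factor, had 71.8, 60.9 and 71.9 CPM in WT and 35.9, 60.8 and 23.1 CPM in G12D (log2 change -0.79, SE 0.26, edgeR adjusted p 0.318). Car2, a carbonic anhydrase gene, had 1308, 988 and 1105 CPM in WT and 589, 948 and 311 CPM in G12D (log2 change -0.93, adjusted p 0.317). Both were near WT at T2. Within EryP/early Ery-like cells the median of the list was 0.00 with 9 of 18 genes above 0, while the share of these cells was lower in the same libraries. Its part in the sums was not tested. Late erythroid genes had a median of -0.59 over 19 genes (-0.25 without G12D T3, -0.35 without WT T2). By time point their medians were 0.09 at T1, -0.59 at T2 and -1.3 at T3. Hbb-bs, an adult beta globin gene, had 10387, 20817 and 12397 CPM in WT and 10084, 8880 and 4428 CPM in G12D (log2 change -0.88, adjusted p 0.568).

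Megakaryocyte and platelet genes had a median below 0 at each time point, with -0.97 over 20 genes in the fit and medians of -1.05, -0.69 and -0.85 at T1, T2 and T3. In 13 of the 20 genes every G12D library lay below every WT library (9.5% over all genes), and 9 had an unadjusted p under 0.05, all lower. Vwf, the gene of von Willebrand factor, had 7.25, 6.72 and 6.66 CPM in WT and 2.69, 3.93 and 3.15 CPM in G12D (log2 change -1.05, SE 0.21, edgeR adjusted p 0.124). Pf4, encoding platelet factor 4, had 251, 337 and 267 CPM in WT and 102, 164 and 140 CPM in G12D (log2 change -1.06, SE 0.31, adjusted p 0.293). Rab27b, a GTPase gene of granule release, had 7.07, 7.10 and 7.02 CPM in WT and 2.89, 3.30 and 2.73 CPM in G12D (log2 change -1.20, adjusted p 0.219). The groups were apart in all 3 genes. None passed the edgeR fit of the 12 libraries, whereas DESeq2 called all 3 (adjusted p 0.0271 for Pf4, 0.0101 for Vwf and 0.0280 for Rab27b). EdgeR also called Pf4 in the fit of the 6 libraries with the replicate block, and Vwf in the fit without G12D T2. Cd9 and Serpine2, both abundant members, stayed near WT with log2 changes of -0.10 and 0.06. Within Meg-like cells the median was -0.40 over 18 genes. The share of Meg-like cells was lower in G12D at each time point, and its part in the sums was not tested.

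**Figure D4:**
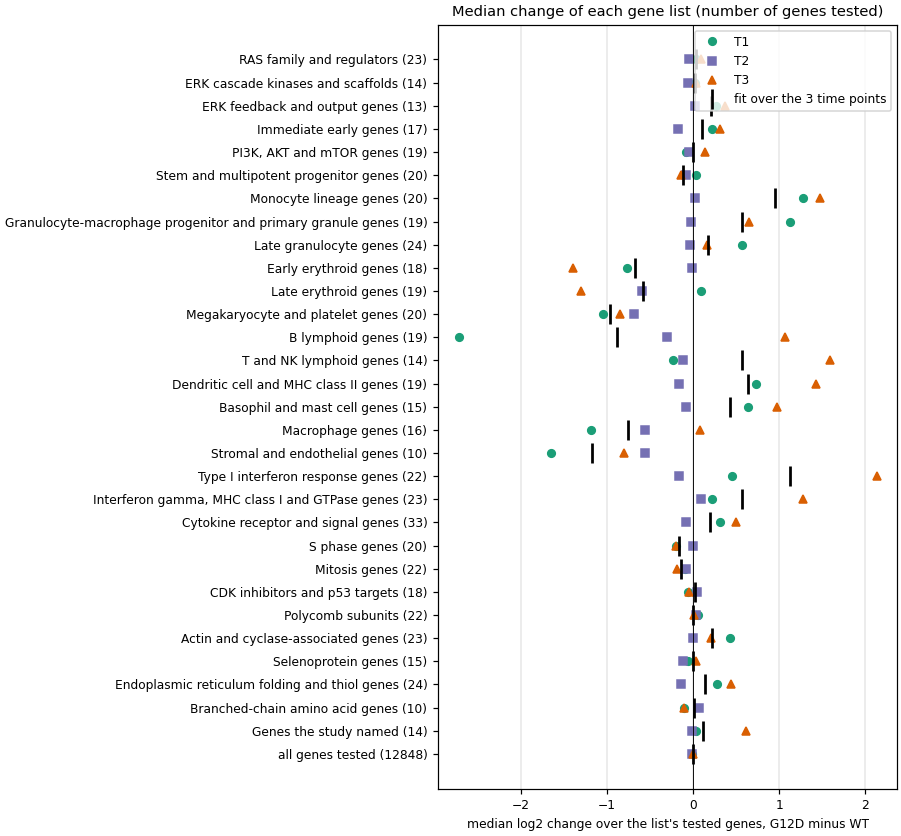
Median log2 change (G12D minus WT) over the tested genes of each of the 30 lists and over all genes, for T1, T2 and T3 and, as a black stroke, for the fit over the 3 time points. The T2 squares lie near 0 for the monocyte (0.02) and early erythroid (-0.01) lists and at -0.69 for the megakaryocyte list, and the type I interferon list is at 2.13 at T3.

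Type I interferon response genes had a median of 1.12 over 22 genes, of which 21 were above 0 and 1 had an unadjusted p under 0.05. The medians were 0.45, -0.17 and 2.13 at T1, T2 and T3, and the median was -0.12 without G12D T3 and 1.69 without G12D T2. Ifitm3, an antiviral membrane protein gene, had 336, 248 and 332 CPM in WT and 440, 195 and 1216 CPM in G12D (log2 change 0.88, SE 0.81, edgeR adjusted p 0.700). Ifi27l2a had 77.1, 22.4 and 21.6 CPM in WT and 97.1, 13.7 and 418 CPM in G12D. A single library, G12D T3, was thus high. The list was above 0 in each of the 9 classes tested, with medians from 0.64 in ProMo-like to 1.57 in late GN-like cells and 0 members called by edgeR. Interferon gamma, MHC class I and GTPase genes had a median of 0.56 over 23 genes (22 above 0, 5 with an unadjusted p under 0.05 and higher), and of 0.07 without G12D T3. Psmb8, an immunoproteasome subunit gene, had 216, 240 and 183 CPM in WT and 270, 258 and 380 CPM in G12D (log2 change 0.56, adjusted p 0.381).

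In the pathway of the allele itself, the RAS family and its regulators had a median of 0.03 over 23 genes with 0 called by edgeR and 1 with an unadjusted p under 0.05. That gene was Hras, with 77.5, 71.3 and 69.5 CPM in WT and 42.5, 62.1 and 40.0 CPM in G12D (log2 change -0.57, SE 0.17, adjusted p 0.293). ERK cascade kinases and scaffolds had a median of 0.02 over 14 genes. Map2k1, encoding the kinase MEK1, had 21.5, 25.1 and 20.0 CPM in WT and 26.9, 27.4 and 33.1 CPM in G12D (log2 change 0.43, adjusted p 0.403). Of the PI3K, AKT and mTOR genes, 0 of 19 had an unadjusted p under 0.05.

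ERK feedback and output genes, which ERK activity is known to induce, had a median of 0.20 over 13 genes, 11 above 0. The median was 0.02 at T2, and in the fit it was 0.09 without G12D T1 or G12D T3 and 0.12 without WT T3. Spry2, a feedback inhibitor of receptor signalling to RAS, had 11.1, 7.87 and 7.73 CPM in WT and 17.7, 14.4 and 15.9 CPM in G12D (log2 change 0.90, SE 0.20, edgeR adjusted p 0.189). Ccnd1, encoding cyclin D1, had 6.71, 5.20 and 7.53 CPM in WT and 14.7, 8.37 and 15.7 CPM in G12D (log2 change 1.02, SE 0.21, adjusted p 0.135). Neither passed the main test although their groups did not overlap, and both passed with DESeq2. Myc and Spred1 were near WT, with log2 changes of 0.08 and -0.06. Dusp4, Etv1, Etv4 and Fosl1 were too low to be tested, each under 0.41 CPM in all 6 libraries. By class the list median was 0.41 in HSC/MPP-like cells, 0.51 in EryP/early Ery-like cells and -0.10 in ProMo-like cells.

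Immediate early genes were mixed. Klf4 had 3.98, 4.74 and 3.33 CPM in WT and 13.5, 4.78 and 10.8 CPM in G12D (log2 change 1.22, SE 0.33, edgeR adjusted p 0.261), and Egr1 was at 0.535 to 0.804 CPM in WT and 0.203 to 0.237 CPM in G12D (log2 change -1.61, adjusted p 0.261). Among 33 cytokine receptor and signal genes 0 were called by edgeR, 6 had an unadjusted p under 0.05 and were higher, and 3 were lower. Csf2ra, a chain of the receptor for granulocyte-macrophage colony-stimulating factor, had 20.2, 18.5 and 19.5 CPM in WT and 54.2, 25.5 and 26.2 CPM in G12D (log2 change 0.80, SE 0.20, adjusted p 0.230). Il3ra had 11.2 to 12.2 CPM in WT and 12.98 to 22.9 CPM in G12D (log2 change 0.73, adjusted p 0.287). Among the stem and multipotent progenitor genes (median -0.12 over 20), Ly6a, which encodes Sca-1, had 17.9, 14.8 and 15.3 CPM in WT and 63.5, 19.0 and 73.0 CPM in G12D (log2 change 1.56, adjusted p 0.293). Kit, used to enrich the cells, was at 48.2 to 58.5 CPM in WT and 43.6 to 49.2 CPM in G12D. S phase genes had a median of -0.16 over 20, CDK inhibitors and p53 targets of 0.02 over 18, Polycomb subunits of 0.00 over 22, endoplasmic reticulum folding genes of 0.13 over 24, branched-chain amino acid genes of 0.01 over 10 and genes named in the study of 0.11 over 14. Medians this close to 0 moved by over 1.5 times or changed sign in 1 or more of the fits that leave out a library. Gem, a small GTPase gene named in the study, had 1.19, 0.930 and 1.38 CPM in WT and 5.88, 1.14 and 4.99 CPM in G12D (log2 change 1.76, adjusted p 0.417).

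Markers of other cell types showed what else the libraries held. B lymphoid genes summed to 1353, 661 and 108 CPM in WT and 200, 553 and 250 CPM in G12D, with list medians of -2.72, -0.31 and 1.07 at the 3 time points and fitted medians of 0.12 without WT T1, -1.43 without WT T3 and -0.18 without G12D T1. Macrophage genes had a median of -0.76 over 16 genes (0.12 over those with a mean of at least 10 CPM, -0.49 without G12D T1), and their sum was 263 to 329 CPM in WT and 224 to 263 CPM in G12D. Stromal and endothelial genes were low in all, at 15.98 to 36.1 CPM in WT and 9.13 to 11.3 CPM in G12D in sum (median -1.18 over 10 genes, -1.90 without G12D T2). Cxcl12, a chemokine gene of stromal cells that was also among the leading genes of the Meg-like cluster here, had 14.9, 6.13 and 3.74 CPM in WT and 0.254, 1.65 and 0.95 CPM in G12D (log2 change -2.91, SE 0.71, edgeR adjusted p 0.237). Dendritic cell and MHC class II genes had a median of 0.63 over 19 genes (0.00 without G12D T3, 1.0 without G12D T2) and basophil and mast cell genes of 0.42 over 15 (0.27 without G12D T3). The part of these cells in the values of the called genes was not tested.

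Cd3d, a chain of the T cell receptor complex, stood out among the T and NK lymphoid genes (median 0.57 over 14 tested, -0.15 without G12D T3 and 0.90 to 0.99 without WT T1, G12D T1 or G12D T2). It had 1.43, 0.592 and 1.64 CPM in WT and 48.1, 36.9 and 42.3 CPM in G12D (log2 change 5.25, SE 1.48, edgeR adjusted p 0.309). The difference was large at every time point. It passed with edgeR on the 6 libraries alone (adjusted p 0.000753) and with DESeq2 on all 12 (adjusted p 0.0120), and not with edgeR on all 12, where Cd3d was at 31.3, 1.67 and 0.842 CPM in the G12D/E2-KO libraries, a wide spread within that genotype. Cd3e, its partner in the complex, was at 0.203 CPM or less in all 6 libraries and was too low to be tested. Thy1, a surface antigen of T cells, was at 1.60, 1.61 and 0.820 CPM in WT and 0.203, 0.114 and 0.356 CPM in G12D (log2 change -2.55, SE 0.47, edgeR adjusted p 0.0943, DESeq2 adjusted p 0.00474).

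Whether the called genes differed in all cells or in some classes was asked with UMI sums per library and class, in those 9 classes that had 20 or more cells in each library. The calls were 15 in HSC/MPP-like (0.179%), 15 in GMP/early GN-like (0.143%), 15 in ProMo-like (0.17%), 9 in late GN-like (0.103%), 5 in Meg-like (0.0996%), 1 in MEP-like (0.0206%), 15 in EryP/early Ery-like (0.152%), 7 in late Ery-like (0.119%) and 1 in baso/mast-like cells (0.0246%). Pttg1 was called in 7 classes, Gdpd3 in 6, and Cap1 and Lyrm7 in 5 each. Tceanc2 was called lower in 4 of the 6 classes where it was tested, and Selm in 2 of 5. Every one of the 14 genes had the same sign in all classes in which it was tested. Since the class sums are parts of the library sums, this is not independent of the first test.

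Pttg1 had its largest change in late GN-like cells, at 13.02, 8.55 and 10.3 CPM in WT and 191, 105 and 187 CPM in G12D (log2 change 3.86, SE 0.22, edgeR adjusted p 1.29e-09). In EryP/early Ery-like cells it had 50.5, 37.3 and 34.03 CPM in WT and 114, 82.6 and 110 CPM in G12D (log2 change 1.40, SE 0.17, adjusted p 0.000977). The WT level was thus lower in late GN-like than in EryP/early Ery-like cells, whereas the G12D levels of both classes were within 2-fold of each other. The difference between classes was not tested. Gdpd3 in HSC/MPP-like cells had 3.25, 0.960 and 5.58 CPM in WT and 93.0, 79.4 and 63.0 CPM in G12D (log2 change 4.63, SE 0.55, adjusted p 0.00775). Cap1 had log2 changes from 1.35 in Meg-like to 1.81 in HSC/MPP-like cells over the 7 classes where it was tested, and in late Ery-like cells, where it was too low to be tested, it had 15 UMIs in each genotype (means of 4.09 and 5.71 CPM). Lyplal1 was called in EryP/early Ery-like cells alone, at 0.350, 0.848 and 0.553 CPM in WT and 5.77, 8.83 and 6.47 CPM in G12D (log2 change 3.56, SE 0.37, adjusted p 0.000309), and had log2 changes of 0.75 to 1.37 in the other 3 classes where it could be tested, and this contrast between classes was not tested. Adgrg5 had 0 UMIs in WT and 40 in G12D in GMP/early GN-like cells (called), and 0 and 84 in ProMo-like cells (adjusted p 0.168).

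**Figure D5:**
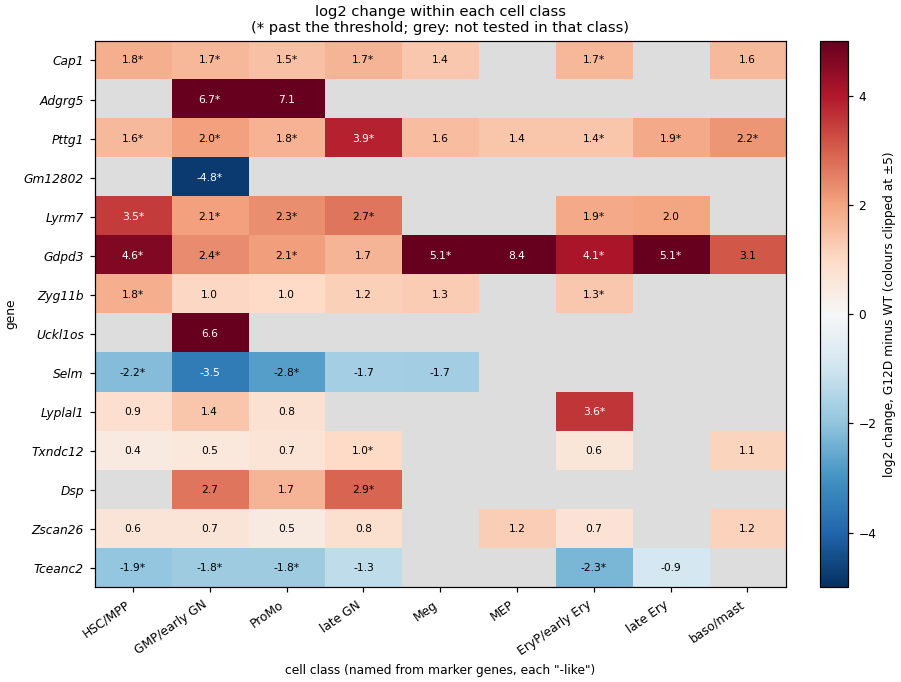
Log2 change (G12D minus WT) of the 14 genes within each of the 9 cell classes, with an asterisk where the adjusted p is under 0.05 and grey where a gene was not tested. Cap1 lies between 1.35 and 1.81 in the 7 classes where it was tested, and Pttg1 between 1.39 and 3.86 in 9 classes. Fitted values of genes at or near 0 UMIs in WT, such as Adgrg5, depend on the prior count and are no bound.

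Other genes were called in classes and not by edgeR over all cells of the 12 libraries. Tpm3-rs7, a tropomyosin pseudogene-like copy, was called in 5 classes. In HSC/MPP-like cells it had 14.1, 19.2 and 17.7 CPM in WT and 110, 185 and 90.1 CPM in G12D (log2 change 2.94, SE 0.30, edgeR adjusted p 0.000101). Over all cells it was at 10.8 ± 0.617 CPM in WT and 130 ± 39.4 CPM in G12D (adjusted p 0.0968), and at 9.18 to 74.3 CPM in the E2-KO libraries. Gm7102, called in 3 classes, was at 1.12 ± 0.261 CPM in WT and 30.8 ± 1.98 CPM in G12D over all cells (adjusted p 0.122). Gm8730 and Gm9008 were called in 4 and 3 classes. DESeq2 called all 4 of these genes over all cells (adjusted p 1.17e-06 for Tpm3-rs7, 1.65e-07 for Gm7102, 0.000444 for Gm8730 and 3.31e-05 for Gm9008). All of these may share reads with near-identical copies elsewhere, so their counts are uncertain.

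Further class calls were lower or higher in single classes or in a few. Tuba4a, an alpha tubulin gene, was called lower in 3 classes. In HSC/MPP-like cells it had 165, 193 and 154 CPM in WT and 55.4, 133 and 53.4 CPM in G12D (log2 change -1.11, SE 0.18, edgeR adjusted p 0.00511), and it overlaps Stk16, called lower in 2 classes, so their reads cannot be told apart with certainty. Itgb2l, an integrin beta chain gene, had 139, 154 and 144 CPM in WT late GN-like cells and 36.6, 33.7 and 42.1 CPM in G12D (log2 change -2.02, SE 0.26, adjusted p 0.0127). Tubb6, a beta tubulin gene, had 5 UMIs in WT and 79 in G12D in the same class (adjusted p 0.000215). Mid1, an X-linked ubiquitin ligase gene, had 18.5, 6.36 and 32.0 CPM in WT ProMo-like cells and 1.42, 1.16 and 2.13 CPM in G12D (log2 change -3.57, SE 0.42, adjusted p 1.65e-05). Hist1h2bc, a histone gene, had 56.5, 34.9 and 42.5 CPM in WT GMP/early GN-like cells and 24.2, 18.4 and 18.7 CPM in G12D (log2 change -1.04, SE 0.19, adjusted p 0.0200).

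The same allele could be followed where Ezh2 was deleted, by comparing G12D/E2-KO with E2-KO libraries, which are not in the contrast of G12D with WT. There, 12 of 12848 genes were called (0.0934%), and 0 of the 14 genes were among them by edgeR, while 4 had an unadjusted p under 0.05 (19.1% over all genes) and DESeq2 called 2. Cap1 had 12.6, 15.1 and 11.2 CPM with Ezh2 deleted alone, and 22.1, 23.5 and 19.9 CPM with both alleles. These groups did not overlap, and the log2 change was 0.72 (SE 0.13, adjusted p 0.0647). Adgrg5 had 0.695 to 2.14 CPM with Ezh2 deleted alone and 1.78 to 4.44 CPM with both alleles (log2 change 1.40, SE 0.32, adjusted p 0.0886). Selm, which fell in G12D, had a log2 change of 0.60 (SE 0.26, adjusted p 0.246), and Lyplal1, which rose, of -0.50 (SE 0.22, adjusted p 0.251). The changes of the other 10 genes lay between -0.29 for Pttg1 and 1.15 for Uckl1os. The interaction, which is the change with Ezh2 deleted minus the change with Ezh2 intact, was called in 12 of 12848 genes (0.0934%; 3.59% had an unadjusted p under 0.05) and in 6 of the 14: Cap1, Pttg1, Gm12802, Lyrm7, Selm and Lyplal1. In all 6 the change in G12D/E2-KO against E2-KO was smaller than in G12D against WT or of the other sign. The interaction contains the contrast that chose the 14 genes, so this count is a description and no independent test. E2-KO and G12D/E2-KO mice both carried Mx1-Cre, whereas of G12D and WT only G12D did. The interaction thus holds the recombinase as well as the state of Ezh2, and their effects cannot be told apart. The G12D/E2-KO T3 library came from animals of the other sex than the E2-KO T3 library, and its part in these values was not tested. The count of 6 rests on the full set of libraries and was 0 when any one of WT T1, WT T2, E2-KO T2, G12D T1 or G12D T3 was left out.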

How the data were processed

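c-Kit+ bone marrow cells of 12 libraries were profiled by droplet 3′ single-cell RNA sequencing. The authors processed each sample with Cell Ranger on mm10, removed cells with more than 10% mitochondrial reads and doublets called by Scrublet, and deposited 1 table of raw UMI counts per library, with 27998 gene names (121 with a suffix that separates features of the same symbol). Whether strand was used in counting, and the number of mice pooled, are not given in the sources used here. The tables carry no barcodes, so cells were compared between libraries by their counts. G12D T1 cells with a cosine above 0.9 to a G12D/E2-KO T1 cell, on log-transformed counts, were left out. Among the remaining 65 library pairs no cell had such a match on this scale, whereas linear counts gave 1731 matches there. The log scale was taken for that reason. No further doublet caller was run.

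UMIs were summed per library (12.6 to 23.6 M), and genotypes were compared with edgeR 4.0.16 in R 4.3.3 (TMM factors 0.938 to 1.15, filterByExpr, robust quasi-likelihood fit with genotype and time point over the 12 libraries, 6 residual degrees of freedom) with Benjamini-Hochberg adjustment at 0.05. All adjusted p-values and SEs of log2 changes are from this fit unless another is named. An SE is the absolute log2 change divided by the square root of the test's F statistic. It thus follows from the test and is no separate measure of precision, least of all for genes at a few UMIs. DESeq2 1.42.0, other normalizations and filters, fits with and without the replicate block, cells as deposited and leaving out each library were alternatives. CPM are UMIs of a gene per M UMIs of the library, without TMM. Gene positions are from the GENCODE vM21 annotation (GRCm38). Exact intervals for ratios of UMIs cover counting error only.

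WT cells were clustered (scanpy 1.11.5, Leiden resolution 2, 29 clusters) and named from marker genes in 13 classes, and mutant cells took the class of their nearest WT neighbours. When WT cells were matched to the other WT libraries, 97.3% kept their own class. That match used the same components as the clustering, so it does not show how well mutant cells were classed. Class differences may therefore come from the rebuilt names. The myeloid to erythroid ratio was compared by an exact sign-flip permutation test.

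Named are all called genes, the next 10 by p whose libraries do not overlap, Nras and Ezh2, up to 4 members of each list by level and by p, up to 3 further calls per class, the 10 most abundant genes, and the neighbours of Nras (3 by p). The chromosome 4 neighbours and the genes repeated over classes were chosen after their values were seen. The members and gene lists were chosen with earlier results of these data known. On simulated counts of 12657 genes for G12D against WT, 200 genes were changed, none of them at a low level. Of those changed 1.5-, 2- and 4-fold, 8 of 67 (11.9%), 53 of 67 (79.1%) and 64 of 66 (97.0%) were recovered. Beside these recovered genes there were 11 false calls. The rates do not cover genes at a few UMIs. Apart from the change and the library size, each simulated gene had the same mean in every library, with no effect of time point or sex. The rates may thus be too high for the real libraries, whose time points were not alike. Cd3d, with means of 1.22 CPM in WT and 42.4 CPM in G12D, was not called by the main edgeR fit (adjusted p 0.309). Some members of the lists and a sequence are not reported here.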

Additional observations from a re-analysis of the deposited data

Results flagged for a closer look

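Among the 14 called and the next 10 genes, 7 are listed here because they passed the threshold for edgeR's interaction term. This term is the log2 change of G12D/E2-KO against E2-KO minus that of G12D against WT. It was -1.13 for Cap1 (adjusted p 0.0469), -2.31 for Pttg1 (0.0189), 6.16 for Gm12802 (0.0189), -2.22 for Lyrm7 (0.0459), 2.77 for Selm (0.0459), -2.25 for Lyplal1 (0.0459) and -6.31 for the pseudogene Gm9726 (0.0459), each over 3 libraries a genotype. The first 6 were called in G12D against WT, and Gm9726 was among the next 10 genes there. That contrast is part of the interaction, so the direction is no separate evidence, and the fitted values of Gm12802 and Gm9726, near 0 UMIs in one genotype, depend on the prior count. Mx1-Cre differed between G12D and WT and not between G12D/E2-KO and E2-KO. A dependence on Ezh2 and one on the recombinase therefore cannot be told apart in this term. Pttg1 and Lyrm7 were as high in E2-KO as in G12D, at 192 ± 29.6 and 16.9 ± 5.04 CPM, whereas the E2-KO mean was 12.9 ± 2.00 CPM for Cap1, below all WT libraries, and Gm12802 and Selm were near WT in E2-KO. Of the 14 called genes, the count with an interaction fell from 6 to 0 without WT T1, WT T2, E2-KO T2, G12D T1 or G12D T3.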

How the results depend on the processing

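By edgeR, 14 genes were called over all cells. DESeq2 called 142 (79 higher and 63 lower, 55.6% higher against 78.6%), the fit with no low-count filter 27 (17 higher), with a mean of at least 10 CPM 8, with cells as deposited 8, and with the 6 libraries alone 24 with the replicate block (15 higher) and 38 without it (21 higher) (with the block 2 residual degrees of freedom are left). In that fit with the block 9 of the 14 passed, and Lyplal1 (adjusted p 0.127), Zscan26 (0.119), Tceanc2 (0.119), Txndc12 (0.0679) and Dsp (0.0634) did not. Leaving out 1 library gave 4 to 136 calls: 4 without WT T1, 7 without WT T2, 6 without WT T3, 9 without E2-KO T2, 7 without G12D T1, 136 without G12D T2 (64 higher and 72 lower), 8 without G12D T3 and 26 without G12D/E2-KO T3. Without the replicate block 11 genes were called, 9 of them among the 14. As a check of pairing, deviations of WT and G12D at the same time point correlated at r = -0.037, 0.170 and 0.077 over 5538 genes, so libraries of the same time were not shown to deviate together, although the fit holds time point as a term. Of list members, 4 were called, 28 by DESeq2, 8 with the 6 libraries and no replicate block, 2 with cells as deposited and 2 to 25 when 1 library was left out (25 without G12D T2; 2 without WT T1, WT T2, G12D T1 or G12D T3). Within classes 83 calls became 479 with the 6 libraries and the replicate block, and 34 to 207 when 1 library was left out (34 without WT T1, 42 without WT T3, 49 without G12D T1, 45 without G12D T3, 127 without E2-KO T3, and 133, 126 and 207 without G12D/E2-KO T1, T2 and T3). Class shares went from 0 calls to 1 with the 6 libraries and the replicate block, and to 0 to 2 when 1 library was left out (2 without G12D T2). With Ezh2 deleted, 0 of the 14 became 2 with DESeq2 and 0 to 2 when 1 library was left out (1 without G12D T2, 2 without G12D/E2-KO T3), and the 6 interactions became 12 with DESeq2 and 0 to 9 when 1 library was left out. The cause of these differences was not tested. No called value changed sign. Uncalled, 70 of 4936 values over 228 named genes and 55 of 658 list medians, in 15 lists, did. Matching cells on linear counts left 13 of the 14 calls. The log scale of the main match was chosen after linear counts were seen to match cells of other library pairs too.

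Lyrm7 and Gdpd3 lost the call without WT T1 or WT T3 (adjusted p up to 0.0743 each), Zyg11b without any one of the WT libraries, G12D T1 or G12D T3 (0.113), Uckl1os without any one of the WT libraries or G12D T1 (0.141), Selm without any one of the WT libraries, E2-KO T3, G12D T1 or G12D T3 (0.148), and Lyplal1 without WT T1, WT T2, E2-KO T2 or G12D T1 (0.210). Txndc12 passed in 5 of 12 such fits, and not without any one of the WT libraries, E2-KO T1, E2-KO T2, G12D T1 or G12D T3 (up to 0.340). Dsp passed in 3, without G12D T2, G12D/E2-KO T1 or G12D/E2-KO T3 (otherwise up to 0.244), Zscan26 in 2, without G12D T2 or G12D/E2-KO T3 (otherwise up to 0.424), and Tceanc2 in 4, without E2-KO T1, G12D T1, G12D T2 or G12D/E2-KO T3 (otherwise up to 0.233). With 16.8 to 23.6 M UMIs a library, genes at a few UMIs such as Adgrg5 and Gm12802 are limited by counting, and the simulation changed no gene at so low a level. Among the genes that it did change, 11.9% of 1.5-fold changes were recovered.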
